A study of Mus musculus with 11 samples.

Results

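Livers taken after 7 days of YAP induction were compared with livers taken after 3 days, to describe what was added to the liver transcriptome between these times. The comparison holds 3 livers at 7 days and 4 at 3 days, 7 of the 11 libraries of the series, and its members were chosen by their labels alone. The induced mice were C57BL/6 animals labelled ROSA26-rtTA-IRES-EGFP; tetYAP, which ate doxycycline food for 3 or 7 days. The remaining 4 libraries are controls labelled ROSA26-rtTA-IRES-EGFP; WT that ate doxycycline food for 7 days, so the rtTA allele and the drug were common to all mice, and only the induced mice carried tetYAP. The labels do not say whether the controls carry the Cre transgene. By the study's methods, an Alb promoter drives the Cre that permits rtTA expression and tet-YAP encodes a constitutively active YAP, so the transgene is meant for hepatocytes while RNA came from all cells of the liver. Each library is 1 mouse.

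YAP is a coactivator that the Hippo kinases keep out of the nucleus; when it enters, it binds TEAD factors on DNA and raises genes for growth, adhesion and the cytoskeleton. In the adult liver, hepatocytes rarely divide and devote much of their RNA to plasma proteins, bile acids, drug metabolism and the urea cycle. Forced YAP activity is known for liver overgrowth, loss of mature hepatocyte traits and the gain of biliary and fetal ones. Macrophages, stellate cells and the sinusoidal endothelium share the tissue and contribute inflammation and extracellular matrix.

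TEAD factors bind the letters GGAATG, written CATTCC when read from the opposite strand. These letters were searched on both strands in the 250 bases before each RefSeq gene start, since several of the YAP targets described here hold them close to that start. The 4 windows shown belong to targets that rose between 3 and 7 days. Capitals mark the searched letters, and each sequence runs 5′ to 3′ in the direction of its gene on the mm9 genome (Ankrd1 chr19:36194335-36194584, minus strand; Vgll3 chr16:65815184-65815433, plus strand; Amotl2 chr9:102619884-102620133, plus strand; Cyr61, named Ccn1 in RefSeq, chr3:145312950-145313199, minus strand).
Ankrd1: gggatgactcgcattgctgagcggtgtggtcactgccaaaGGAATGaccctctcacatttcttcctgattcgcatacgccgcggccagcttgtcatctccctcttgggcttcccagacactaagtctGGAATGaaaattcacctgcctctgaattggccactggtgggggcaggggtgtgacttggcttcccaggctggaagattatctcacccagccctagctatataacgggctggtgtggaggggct
Vgll3: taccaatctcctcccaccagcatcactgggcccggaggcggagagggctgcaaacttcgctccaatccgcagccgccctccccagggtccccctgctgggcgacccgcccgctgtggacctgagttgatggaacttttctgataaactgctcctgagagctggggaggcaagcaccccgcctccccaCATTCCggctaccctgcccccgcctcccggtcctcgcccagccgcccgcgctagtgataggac
Amotl2: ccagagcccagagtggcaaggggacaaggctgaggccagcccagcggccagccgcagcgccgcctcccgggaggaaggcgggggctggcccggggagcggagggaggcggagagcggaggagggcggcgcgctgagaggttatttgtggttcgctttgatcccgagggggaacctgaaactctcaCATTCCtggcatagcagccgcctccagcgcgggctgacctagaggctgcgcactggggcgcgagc
Cyr61: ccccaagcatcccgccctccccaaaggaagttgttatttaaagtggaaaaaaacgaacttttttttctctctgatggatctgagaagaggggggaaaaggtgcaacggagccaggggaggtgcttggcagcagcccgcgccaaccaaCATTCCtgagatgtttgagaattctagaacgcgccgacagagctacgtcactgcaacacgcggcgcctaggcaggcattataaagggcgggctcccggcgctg

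The Ankrd1 window holds the letters 2 times, 123 and 210 bases before the start, and the windows of Vgll3, Amotl2 and Cyr61 hold them once each, 63, 65 and 103 bases before it. Among all 32851 RefSeq windows, 12.6% held the letters at least once. The share was 11.1% for the windows of all tested genes, 12% for those of genes that were higher at 7 days and 10.7% for those of genes that were lower. For a list of YAP-TEAD target genes it was 33.3%, or 9 of the 27 windows of its 24 matched members. Of the genes with such a window, Ajuba was not called and 8 were higher at 7 days (Ankrd1, Vgll3, Amotl2, Cyr61, Axl, Wtip, Ptpn14 and Crim1). Higher at 7 days were 50% of all tested members of the list and 14.0% of all tested genes. A match is a description of these letters only, not a measured binding site.

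Values are the deposited eRPKM, reads on a gene per kilobase of its exons, scaled to the total of reads on genes in that library. The reads behind each value could be recovered, and the 3-day libraries held 2660233 to 3681416 reads on genes, the 7-day libraries 5312486 to 5941357 and the controls 1251396 to 5495697. Depth was therefore not balanced between the times. By their Xist and Y-linked reads, all 3 mice at 7 days were female, while 3-day livers 1 and 2 were male and livers 3 and 4 female. Alb, the marker that defines hepatocytes, was at 234 to 454 eRPKM in the 7 induced livers, and the pancreas markers listed for a check summed to at most 25.5.

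The most abundant genes need care. The highest reads per kilobase of any gene lay between 1281 and 1501 in all 11 libraries, although depth differed 4.75-fold. Alb reached 1209 to 1311 reads per kilobase at 3 days and 1349 to 1392 at 7 days, yet its eRPKM went from 346 to 454 down to 234 to 258, and the control liver of similar depth, control liver 2, stood at 268. The Alb difference of -0.59 on the log2 scale (SE 0.33, limma adjusted p = 0.174) was not called. Whether this pattern contributed to falls of other abundant hepatocyte genes was not tested, so for several of those genes the reads per kilobase before scaling and the value of control liver 2 are given as well.

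**Figure D1:**
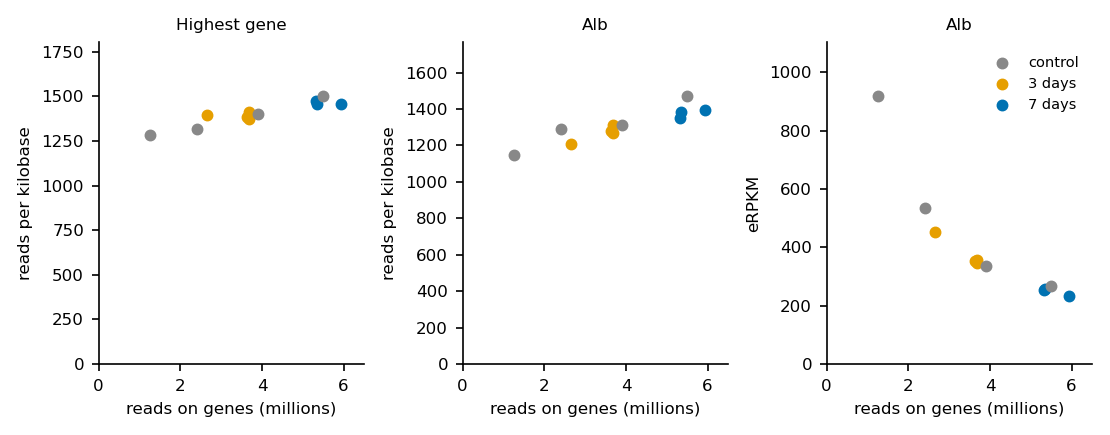
Reads on genes in each library (x axis) against the reads per kilobase of the library's highest gene (left), the reads per kilobase of Alb (middle) and the eRPKM of Alb (right); each point is 1 of the 11 libraries. The highest gene stays between 1281 and 1501 reads per kilobase at every depth, while the Alb eRPKM is 918 in the shallowest library, a control, and 234 in the deepest, a 7-day liver.

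Of 14244 genes tested, 1997 were higher at 7 days than at 3 days (14.0%) and 756 were lower (5.31%). A gene was called when its limma adjusted p was under 0.01 and its difference in mean log2(eRPKM + 0.5) was larger than 0.5. These log2 differences understate the change of genes with few reads. The 7-day livers lay above all 3-day livers for 1994 of the higher genes and below them for 750 of the lower ones, where 31.3% and 13.8% of all tested genes had such separate groups. A difference above 2 was seen for 554 higher genes, and 116 lower genes fell below -2. Among all tested genes the median difference was 0.26. It was 0.06 with size factors and -0.05 after quantile normalization, which turned the split of calls to 1526 higher and 1185 lower, and 1436 and 1430, respectively.

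The direction followed abundance. Of the 2891 genes with a mean of 10 to 30 reads per kilobase, 628 were higher and 42 lower. In the range of 300 to 600 reads per kilobase, 12 were higher and 179 lower, and of the 205 genes at 600 or more, none was higher and 28 were lower. Of the 756 lower genes, 296 also had fewer reads per kilobase before scaling in every 7-day liver than in every 3-day liver, although the 7-day libraries were deeper. Among the 1997 higher genes, 3-day liver 3 was the one nearest to the 7-day livers for 1046, liver 4 for 486, liver 2 for 292 and liver 1 for 173.

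**Figure D2:**
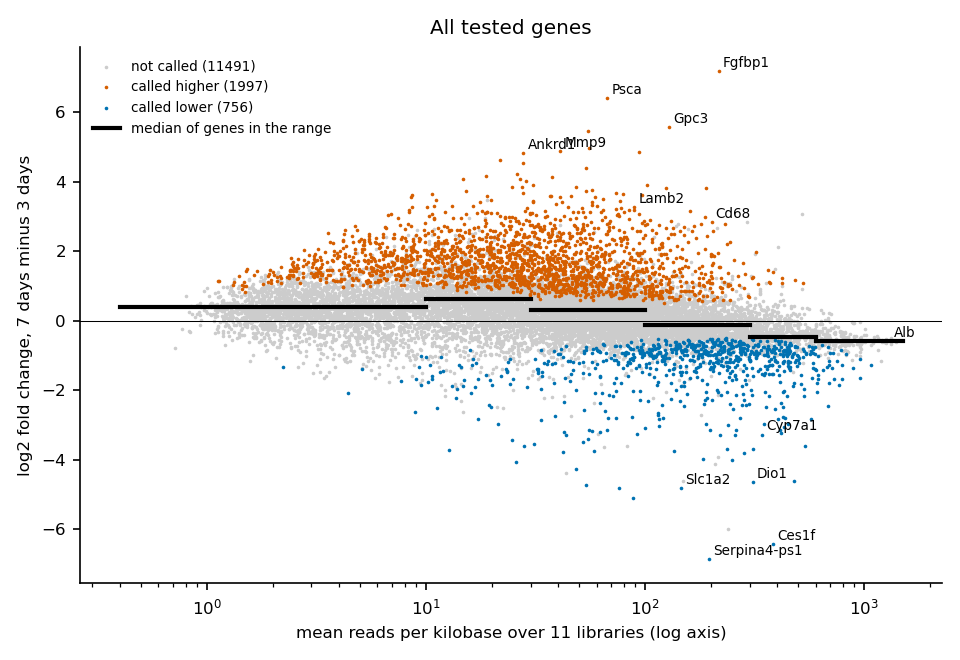
Log2 difference between 7 and 3 days (y axis) of the 14244 tested genes against their mean reads per kilobase over the 11 libraries (x axis, log scale); orange points are the 1997 genes called higher, blue points the 756 called lower, and black bars the median of the genes in each range. The median runs from 0.41 below 10 reads per kilobase to -0.59 at 600 or more.

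Replicates mattered for the number of calls. Leaving out 7-day liver 1, 2 or 3 left 1213, 1100 and 1048 higher genes and 415, 401 and 364 lower ones, and without 3-day liver 4 there were 486 lower genes. A fit of the female livers only held 2 livers at 3 days, 3 at 7 days and 2 controls. It called 1023 genes higher (7.18%) and 401 lower (2.82%). Of the 1997 higher and 756 lower genes, 988 and 345 were called there in the same direction. All of them kept their sign, in livers that belong to the full comparison too. That could hardly have come out otherwise, since 1994 and 750 of them had groups that did not overlap.

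The largest rises were in genes that were silent or nearly so at 3 days. Fgfbp1, a secreted binding protein that releases fibroblast growth factors from the matrix, stood at 0, 0, 2.73 and 0.682 eRPKM in 3-day livers 1 to 4 and at 159, 124 and 146 in the 7-day livers, a log2 difference of 7.18 (SE 0.82, adjusted p = 4.88e-05). No 3-day liver came near any 7-day liver. Psca, a surface antigen of epithelial stem and secretory cells, had no read in any 3-day liver and 28.3, 54.7 and 48.0 eRPKM at 7 days, at least 175-fold higher than the 0.249 eRPKM that 3 reads over the 3-day group would give. Cryab, a small heat shock protein, went from 2.03, 1.86, 1.83 and 0.734 eRPKM to 59.9, 54.5 and 61.8 (4.86, SE 0.40, adjusted p = 6.45e-06). The other genes among the 15 largest rises were Gpc3, Lrtm2, Ifitm6, Mmp9, Ankrd1, Fam83b, Slc35f2, Bicc1, Mir3109, Tmem130, Cxcl14 and Muc13, with log2 differences of 4.09 to 5.57. Mir3109 rested on at most 1 read in a 3-day library and 5 to 10 in a 7-day library. Its call was lost in 8 of 25 alternatives (highest limma adjusted p = 0.0251), each fit without a 7-day liver included. In controls, Fgfbp1 was between 0 and 5.35 eRPKM and Psca between 0 and 0.906.

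The largest falls were in hepatocyte enzymes, transporters and secreted proteins. Slc1a2, a glutamate transporter, fell from 58.3, 40.1, 41.2 and 49.0 eRPKM at 3 days to 0.795, 1.80 and 1.04 at 7 days (-4.82, SE 0.21, adjusted p = 6.13e-08), and its reads per kilobase before scaling went from 145 to 180 down to 4.26 to 10.7, with control liver 2 at 82.3 eRPKM. Dio1, the deiodinase that activates thyroid hormone, went from 104, 151, 99.0 and 154 eRPKM to 4.57, 5.39 and 3.73 (-4.64, SE 0.29, adjusted p = 6.51e-07), and from 276 to 568 reads per kilobase before scaling to 19.8 to 32, with 142 eRPKM in control liver 2. Controls held 62.5 to 82.3 eRPKM of Slc1a2 and 64.0 to 155 of Dio1, so Dio1 was within the control range in every 3-day liver, whereas Slc1a2 was below it in all of them. Notum, an enzyme that inactivates Wnt ligands and is known from hepatocytes around the central vein, went from 16, 19.1, 11.3 and 26.6 eRPKM to 1.03, 1 and 0.517 (-3.76, SE 0.33, adjusted p = 9.45e-06). Serpina4-ps1 (-6.86), Ces1f (-6.42), Elovl3 (-5.09), Mup9 (-4.81), Mup1 (-4.74), Car3 (-4.60), Slc22a7 (-4.27), Dct (-4.08), Cyp7b1 (-4), Mup17 (-3.99), Aox3 (-3.80) and Mup6 (-3.78) completed the 15 largest falls. The Mup genes, Ces1f and Serpina4-ps1 have close copies, so the reads assigned to each of them are uncertain. The difference of Elovl3 was -3.22 among female livers, and its call was lost in 7 of 25 alternatives (highest adjusted p = 0.0452), each fit without a 7-day liver included.

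**Figure D3:**
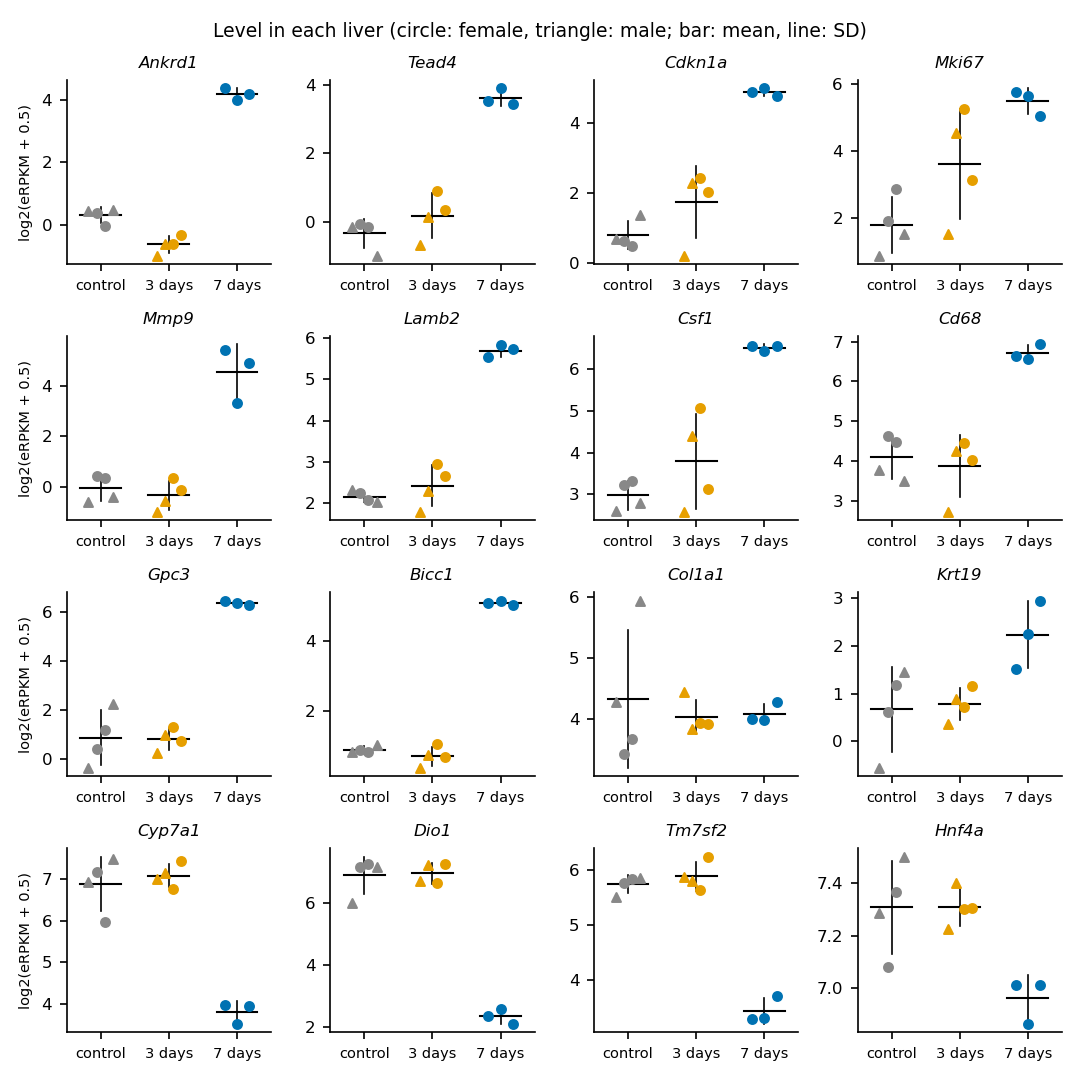
Level of 16 genes in each liver as log2(eRPKM + 0.5), for controls (grey), 3 days (orange) and 7 days (blue); circles are female and triangles male mice, the bar is the group mean and the line the SD. Ankrd1, Lamb2, Cd68, Gpc3 and Bicc1 are separated from both other groups at 7 days, Mki67 at 3 days spans nearly the range between controls and 7 days, and Col1a1 shows no step.

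Yap1, the gene of the coactivator itself, was at 15.6, 17.2, 19.3 and 15.3 eRPKM in 3-day livers 1 to 4, at 18.8, 19 and 17.4 at 7 days and at 13.9 to 21.1 in controls (0.13, SE 0.17, adjusted p = 0.57). The groups overlapped, so induction was not visible at this symbol, and whether reads of the transgene were counted there is not given in the sources used here.

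A list of YAP-TEAD target genes held more rises than falls between 3 and 7 days. Of 35 genes listed, 32 were tested, and 16 were higher (50%, against 14.0% of all tested genes) and 1 lower, with a median of 1.27 against 0.26 for all genes. The mean log2 level of the list above controls was 0.08, 0.39, 0.71 and 0.40 in 3-day livers 1 to 4 and 1.63, 1.75 and 1.66 in the 7-day livers. Every 7-day liver was thus above every 3-day liver, and 3-day liver 1 stood at the level of the controls.

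Ankrd1 (chromosome 19, 36186455 to 36194334, minus strand), a nuclear ankyrin-repeat protein and a common readout of YAP, stood at 0, 0.152, 0.149 and 0.299 eRPKM at 3 days, at most 2 reads in a library, and at 20.1, 15.4 and 17.7 at 7 days. Its log2 difference was 4.82 (SE 0.25, adjusted p = 3.21e-07), and all 3-day livers were below all controls, which held 0.457 to 0.879. Ctgf (chromosome 10, 24315248 to 24318489, plus strand), a secreted matricellular protein, behaved in another way: it was at 15.3, 31.3, 34.2 and 15.5 eRPKM at 3 days, all above the controls at 5.20 to 14.2, and at 99.5, 87.3 and 103 at 7 days (2.08, SE 0.34, adjusted p = 0.000591). Its exons overlap Gm15270 on the opposite strand, and the counting did not use strand. Vgll3, a TEAD cofactor, went from 1.17, 0.312, 0.462 and 0.308 eRPKM to 19.6, 17.0 and 13.7 (4.08, SE 0.35, adjusted p = 8.57e-06). Ankrd1 and Vgll3 therefore became detectable above the control range only after 3 days, whereas Ctgf was above it at both times.

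Amotl2, an angiomotin that binds YAP and restrains it, varied widely at 3 days, with 14.9, 46.0, 58.7 and 20 eRPKM, before 95.1, 91.9 and 102 at 7 days (1.66, SE 0.37, adjusted p = 0.00487). Livers 2 and 3 were above livers 1 and 4, and all 4 were above the controls at 9.66 to 14.7. Myof, a membrane repair protein, was at 0.991 to 1.18 eRPKM at 3 days and at 6.13, 7.69 and 9.83 at 7 days (2.37, SE 0.24, adjusted p = 2.20e-05). Tgfb2 rose by 1.71, Axl by 1.88, Wtip by 2 and Wwc1, an upstream activator of the Hippo kinases, by 1.61. Igfbp3, a carrier of insulin-like growth factors that endothelial and other non-parenchymal cells also make, was the exception on the list. It went from 38.9, 15.6, 16.3 and 31.8 eRPKM to 5.20, 6.08 and 4.49 (-2.08, SE 0.31, adjusted p = 0.000323).

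The calls of Ankrd1, Vgll3, Myof, Ctgf, Tead4 and Igfbp3 held under all 25 alternatives run and that of Tgfb2 under the 24 in which it was tested, while Amotl2 was lost in 9 of them and Cyr61 (1.28, adjusted p = 0.00562) in 11, with highest adjusted p values of 0.0408 and 0.0664, both including each fit that left out a 7-day liver, 3-day liver 4 or the male livers. Among female livers 9 members were higher, and without 7-day liver 1, 2 or 3 the list kept 10, 9 and 10.

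Cell division genes were already raised in some livers at 3 days and were high in all at 7 days. Of 68 mitosis genes tested, 13 were higher (19.1%, against 14.0% of all tested genes; 8 with size factors) and none lower. Their median was 1.31, and 66 of 68 differences were positive, though most were not called. The mean log2 level of the list above controls was 0.17, 1.5, 2.10 and 1.02 in 3-day livers 1 to 4, and 2.72, 2.65 and 2.18 in the 7-day livers. Liver 1 was near the controls at 3 days and liver 3 near the 7-day livers.

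Mki67, the Ki-67 antigen of cycling cells, shows this spread, with 2.39, 22.7, 37.2 and 8.24 eRPKM at 3 days, 53.1, 49.3 and 32.1 at 7 days and 1.33 to 6.72 in controls. The groups overlapped, since liver 3 at 3 days exceeded liver 3 at 7 days, and the difference of 1.86 (SE 0.71, adjusted p = 0.0558) was not called. Top2a (1.67, adjusted p = 0.0195) and Cdk1 (1.2, adjusted p = 0.0596) were not called either. Kif23, a kinesin of the central spindle in cytokinesis, did separate, with 1.16, 1.91, 2.83 and 1.57 eRPKM at 3 days and 12.2, 11.5 and 10.7 at 7 days (2.38, SE 0.33, adjusted p = 0.000185). Incenp (2.20), Ncapd2 (2.14), Kif18b (2.06), Cdc25b (2.05) and Plk1 (1.97) were among the other members called. Incenp, Kif18b and Ncapd2 lost their calls in 4, 9 and 17 of 25 alternatives.

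Many mitosis genes carry the CHR letters TTTGAA, or TTCAAA on the opposite strand, near their start, where the repressive DREAM complex is known to bind in resting cells. The letters were in 23 of the 63 windows of the mitosis list (36.5%) and in 16% of all windows. Their share was 11.2% for the windows of all tested genes and 10.2% for those of genes called higher. They are not particular to mitosis genes, being also in 17 of 55 windows (30.9%) of cytochromes P450 of families 1 to 4. CCAAT boxes (CCAAT or ATTGG) were in 44 of the 63 (69.8%), against 33.8% of all windows. The window of Ncapd2 (chr6:125141605-125141854, minus strand, mm9), a condensin subunit, holds the CHR letters 123 bases before the start, in capitals.
Ncapd2: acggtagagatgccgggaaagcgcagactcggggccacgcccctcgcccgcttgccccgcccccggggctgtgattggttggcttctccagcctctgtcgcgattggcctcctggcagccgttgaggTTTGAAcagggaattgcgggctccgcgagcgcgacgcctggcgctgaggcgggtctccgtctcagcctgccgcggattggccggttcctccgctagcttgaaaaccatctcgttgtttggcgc

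Of 55 DNA replication genes, 8 were higher (14.5%, close to the 14.0% of all genes) and none lower, with a median of 1.13. E2f1, a transcription factor of S-phase entry, went from 3.63, 6.28, 14.3 and 5.06 eRPKM to 27.3, 29.3 and 29.6 (2.08, SE 0.34, adjusted p = 0.000667). Pold1 (2.17), Exo1 (1.89) and Cdt1 (1.82) also rose, from 3-day values in which liver 3 was the highest of the 4 each time, and lost their calls in 13, 16 and 17 of the alternatives. Among cyclins, CDKs and their inhibitors, 6 of 29 were higher (20.7%, against 14.0% of all genes) and none lower. The list had 4 higher members with size factors and 1 in female livers. Cdkn1a, the p21 inhibitor of cell cycle progression, had the largest difference of the 6, from 0.657, 4.34, 4.88 and 3.57 eRPKM to 28.8, 31.1 and 26.5 (3.13, SE 0.45, adjusted p = 0.000236). Myc went from 2.93, 2.48, 14.9 and 1.70 to 49.1, 16 and 39.7 (2.9, SE 0.64, adjusted p = 0.00446), and Ccnd1 from 19.5, 38.7, 89.5 and 54.4 to 103, 78.9 and 101, which was not called (1.09, adjusted p = 0.137). An inhibitor of the cycle and genes that drive it were thus higher at the same time.

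Proliferation counts rested on single livers. Without 3-day liver 3 there were 40 mitosis and 30 DNA replication genes called, without 3-day liver 1, 2 or 4 there were 8, 9 and 6 mitosis and 3, 2 and 2 replication genes, and without 7-day liver 1, 2 or 3 there were 4, 3 and 7, and 2, 2 and 1. In female livers 2 mitosis genes and no replication gene were called, and Myc and E2f1 were lost there (adjusted p = 0.0451 and 0.0120), as Myc also was without 3-day livers 1, 2 or 4 or 7-day livers 1 or 3.

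**Figure D4:**
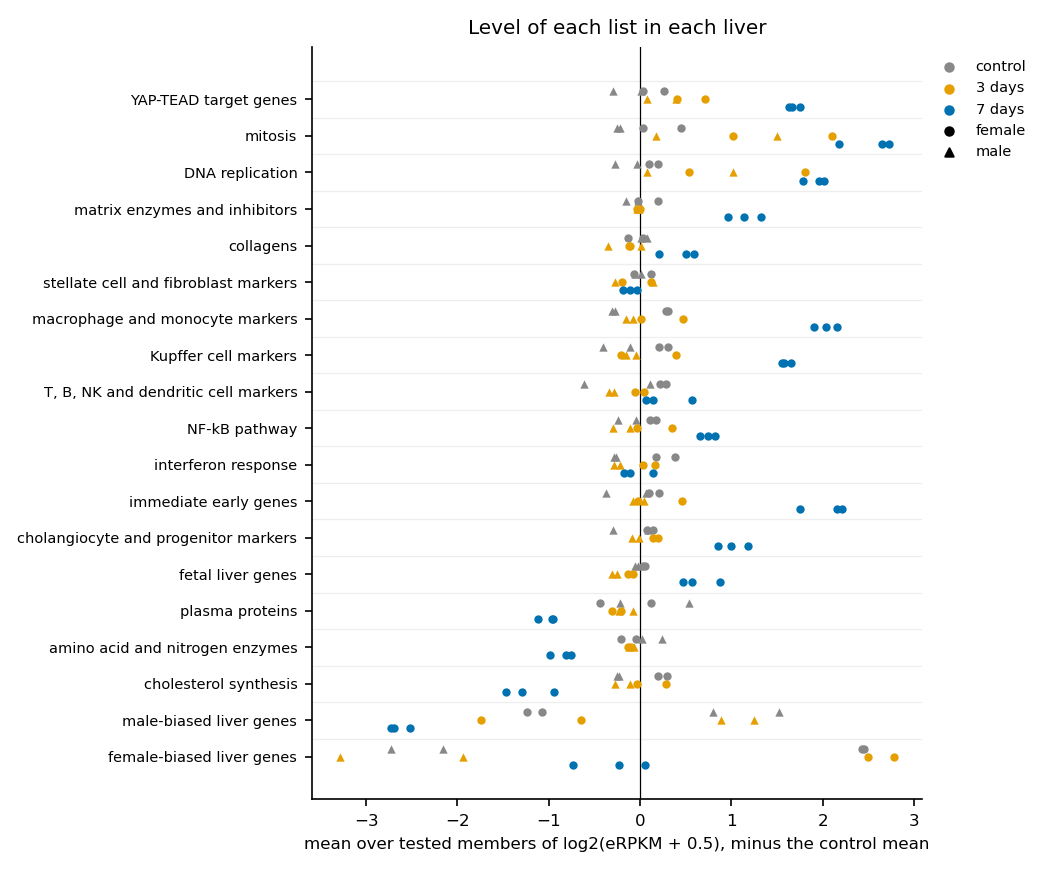
Mean log2(eRPKM + 0.5) over the tested members of each list, minus the mean of the 4 controls (x axis), with 1 point per liver; colours give the group, circles are female and triangles male mice. For mitosis the 3-day livers spread from 0.17 to 2.10, for macrophage markers from -0.15 to 0.47 with the 7-day livers at 1.90 to 2.16, and for matrix enzymes the 3-day livers sit between -0.04 and 0.00 with the 7-day livers at 0.96 to 1.32.

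Matrix genes moved late and unevenly. Enzymes that cut, crosslink or modify the matrix, with their inhibitors, held the largest share, with 18 of 39 tested members higher (46.2%) and none lower, and a median of 0.96. The mean level of this list in the 3-day livers was within 0.04 of the controls on the log2 scale, against 0.96, 1.14 and 1.32 above them at 7 days. Matrix glycoproteins and proteoglycans had 11 of 47 members higher (23.4%, against 14.0% of all tested genes) and none lower. Their median of 0.30 was close to the 0.26 of all genes and became 0.07 with size factors and -0.04 after quantile normalization. Collagens had 5 of 24 higher (20.8%) and 1 lower, with a median of 0.41, which was -0.17 after quantile normalization.

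Mmp9, a gelatinase made by neutrophils, macrophages and many stimulated cells, went from 0, 0.170, 0.756 and 0.420 eRPKM to 41.8, 9.51 and 29.6 (4.89, SE 0.48, adjusted p = 1.99e-05). Although the 7-day livers differed widely among themselves, the lowest was far above the 3-day range. Timp2, which inhibits metalloproteinases, was much less variable, with 7.54, 7.75, 8.73 and 5.97 eRPKM at 3 days and 56.9, 60.1 and 58.6 at 7 days (2.89, SE 0.17, adjusted p = 4.16e-07). Plau, the urokinase plasminogen activator, and its receptor Plaur rose together in each 7-day liver: Plau from 0.923 to 1.56 eRPKM up to 15.6, 12.4 and 23.1 (3.26), and Plaur from 0.327 to 0.994 up to 19.9, 10.3 and 28.5 (3.92).

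Genes of the basement membrane were among the other matrix rises. They are grouped here after their values were seen and were not counted as a list. Lamb2 (chromosome 9, 108382193 to 108392861, plus strand), a laminin beta chain, went from 2.98, 4.42, 7.27 and 5.81 eRPKM to 45.9, 56.1 and 52.3 (3.27, SE 0.25, adjusted p = 4.08e-06). Lama5 rose by 2.86, Nid1 by 2.78, Nid2 by 2.22, Agrn by 1.84, Lamc1 by 1.28 and Hspg2 by 0.98, and of the type IV collagens Col4a5 by 3.00, Col4a3 by 2.12, Col4a4 by 1.98 and Col4a2 by 1.07, while Col4a1 was not called (0.92, adjusted p = 0.0503). The call of Col4a4 was lost in 8 of 25 alternatives (highest adjusted p = 0.0708), each fit without a 7-day liver included. Nid1 alone reached 93.9, 97.1 and 104 eRPKM from 8.92 to 19.7 at 3 days. Emilin2, an elastic fibre glycoprotein (3.76), and Col12a1, which links fibrils (2.88), were outside this group.

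Several genes known from scar formation were not called. Col1a1, the main collagen of scars, was at 21.2, 13.8, 14.6 and 14.6 eRPKM at 3 days and 15.3, 15.2 and 18.7 at 7 days, a difference of 0.05 (SE 0.45, adjusted p = 0.941) that was smaller than its SE and that turned negative in 5 of the alternatives. Col3a1 (0.44, adjusted p = 0.281), Fn1 (0.07, adjusted p = 0.808) and Acta2, a marker of activated stellate cells (0.82, adjusted p = 0.222), were not called, though Acta2 did not overlap between the times (1.79 to 2.81 and 3.43 to 6.34 eRPKM). Timp1, a metalloproteinase inhibitor, had 1 read in each 3-day library and 3 to 16 at 7 days (1.41, adjusted p = 0.0159), and the crosslinking enzyme Lox was at 0.145 to 1.3 and 1.04 to 2.55 eRPKM (1.11, adjusted p = 0.0391). Of 24 stellate cell and fibroblast markers none was higher and 2 were lower (8.33%, against 5.31% of all genes), Reln by -1.43 and Rgs5 by -1.22. The summed level of the 24 was 334 to 547 eRPKM at 3 days and 339 to 403 at 7 days. Col14a1, a fibril-associated collagen of fibroblasts, fell by 1.25, a call lost in 6 alternatives. A p above the threshold does not show that these genes were equal between the times.

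Of the matrix enzymes, 10 members were higher in female livers, 11 without 3-day liver 4, and 10 and 9 without 7-day livers 2 and 3. Collagens called higher dropped to 3 without 3-day livers 1 or 2 and to 2 without any 7-day liver, and Col4a3, which 3-day liver 3 expressed at 5.03 eRPKM against 0.584 to 0.661 in the other 3-day livers, was lost in 16 of 25 alternatives (highest adjusted p = 0.128).

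Inflammatory signals rose in a selective way. Of 34 cytokines and growth factors tested, 12 were higher (35.3%) and 2 lower, with a median of 0.65. Csf1, the growth factor on which macrophages depend, went from 5.49, 20.5, 33.1 and 8.27 eRPKM to 94.0, 85.8 and 93.2 (2.72, SE 0.46, adjusted p = 0.000757). As with Amotl2, livers 2 and 3 were already above the controls (5.55 to 9.49) at 3 days, and the call was lost in 1 of 25 alternatives (adjusted p = 0.0105). Tgfb1, a cytokine that promotes matrix production and restrains hepatocyte growth, was at 3.13, 3.19, 5.41 and 2.52 eRPKM at 3 days and at 20.2, 21.6 and 24.4 at 7 days (2.52, SE 0.29, adjusted p = 5.30e-05), and Tgfb2 and Tgfb3 (2.06, lost in 5 alternatives) were higher too. Tnf was low at both times, at 0.163 to 0.331 and 2.24 to 4.06 eRPKM (2.23, SE 0.32, adjusted p = 0.000226), and Il6 lower still, at 0 to 0.153 and 0.754 to 2.05 (1.74, adjusted p = 0.00115, lost among female livers with an adjusted p of 0.0141). Clcf1, an IL-6 family ligand, rose by 2.81. The death ligand Tnfsf10 fell by 1.4 and Vegfc by 1.11, in calls lost in 3 and 13 of 25 alternatives, for Vegfc among female livers (adjusted p = 0.0509) and in each fit without a 7-day liver.

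Of 29 chemokines tested, 5 were higher (17.2%, against 14.0% of all tested genes), 1 was lower and 23 were not called. Their median was 0.78, or 0.21 among female livers, and 22 of 29 differences were positive. The mean log2 level of the list relative to controls was -0.14, -0.23, -0.06 and 0.28 in 3-day livers 1 to 4. In the 7-day livers it was 0.81, 0.82 and 0.73. Ccl24, which attracts eosinophils, went from 0.565, 4.15, 5.73 and 3.48 eRPKM to 37.4, 32.8 and 42.0 (3.50, SE 0.49, adjusted p = 0.000198), and Ccl3, a macrophage chemokine, from 0 to 0.515 up to 3.08 to 4.04 (2.70, SE 0.30, adjusted p = 4.42e-05). Cxcl14 (4.13), Ccl6 (2.78) and Pf4 (2.65) were the others that rose; Ccl6 has close copies. Ccl2, which recruits monocytes, was at 0.903, 0.995, 2.62 and 6.21 eRPKM at 3 days and 15.3, 5.06 and 17.9 at 7 days, and its difference of 2.19 (SE 0.69, adjusted p = 0.0262) was not called, with 3-day liver 4 above 7-day liver 2. Cxcl1 (-1.02, adjusted p = 0.329), a neutrophil chemokine, and Cxcl10 (0.20, adjusted p = 0.646), an interferon target, were not called. In female livers and in every fit that left out a liver, 5 chemokines were called higher.

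NF-kB pathway genes rose more often than genes at large, 15 of 37 (40.5%), with 3 lower. Feedback inhibitors were among the largest, with Tnfaip3, the A20 deubiquitinase, at 2.06, 4.19, 4.25 and 2.93 eRPKM at 3 days and 21.0, 20.9 and 16.7 at 7 days (2.42, SE 0.28, adjusted p = 5.08e-05). Nfkbid (2.31) and Nfkbie (2.19), both of the IkB family, rose as well. Tnfrsf12a, the receptor for TWEAK, was already above the controls (6.68 to 11.3) at 3 days, with 21.5, 25.5, 27.3 and 35 eRPKM, and reached 134, 114 and 134 at 7 days (2.22, SE 0.19, adjusted p = 9.99e-06); its exons overlap Hcfc1r1 on the opposite strand. The subunits of the noncanonical arm, Nfkb2 (1.67) and Relb (1.48), and its kinase Map3k14 (1.11) were higher, while Chuk, the kinase IKK-alpha of the same arm, fell from 70.8 to 114 eRPKM down to 36.0 to 44.2 (-1.11, SE 0.16, adjusted p = 0.000296). Saa3 (-1.60) and Sod2 (-0.66) were lower. Saa3 had 2 to 13 reads at 7 days and lost its call in 13 of 25 alternatives, among them female livers (adjusted p = 0.0587). Without 7-day liver 1, 2 or 3 the list kept 9, 9 and 8 higher members, and 10 without 3-day liver 4, with 7 in female livers.

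A shortened NF-kB motif, GGNNTTTCC or GGAAANNCC, was present in 10 of the 40 windows of this list (25.0%) and in 4.93% of all windows, including those of Nfkb2, Tnfaip3, Traf3, Tnfaip2 and Icam1 among the genes that rose and of Saa3, which fell. The window of Tnfaip3 (chr10:18735217-18735466, minus strand, mm9) holds 2 copies within 24 bases of the start, in capitals.
Tnfaip3: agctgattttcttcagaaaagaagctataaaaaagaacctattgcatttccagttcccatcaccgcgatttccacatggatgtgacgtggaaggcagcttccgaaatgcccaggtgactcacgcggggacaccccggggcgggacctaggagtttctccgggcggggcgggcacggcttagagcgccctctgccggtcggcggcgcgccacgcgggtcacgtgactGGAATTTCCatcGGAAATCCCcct

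Of 37 interferon response genes 3 were higher (8.11%, below the 14.0% of all genes) and 1 lower (2.7%, against 5.31%), with a median of -0.08. The balance turned to 2 higher and 5 lower with size factors and to 1 and 3 in female livers. Irf8, a factor of the myeloid lineage, was at 2.03 to 4.30 eRPKM at 3 days and 11.2, 14.4 and 11.9 at 7 days (1.76, SE 0.26, adjusted p = 0.000263). Oas2 (1.78) and Oas1a (1.23) rose, in calls lost in 15 and 11 alternatives, and the GTPase Iigp1 fell from 116 to 200 eRPKM down to 50 to 60.7 (-1.43).

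Macrophage and monocyte markers had the highest share of members called of the 34 lists. Of 30 genes listed, 29 were tested, 24 were higher (82.8%) and none was lower, with a median of 1.91. The 7-day livers lay above all 3-day livers for 31.3% of all tested genes and for 28 of these 29 markers. Their summed level was 547 to 981 eRPKM at 3 days, 427 to 758 in controls and 1870 to 2060 at 7 days. In bulk tissue, more cells of a type and more RNA per cell cannot be told apart, and so with fewer cells and less RNA in the falls described here.

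Cd68, a lysosomal protein of macrophages, went from 6.14, 18.6, 21.4 and 15.9 eRPKM to 99.3, 94.2 and 121 (2.84, SE 0.38, adjusted p = 0.000137). Itgam, the CD11b integrin, went from 0.873, 1.28, 1.39 and 1.39 to 21.4, 14.1 and 19.9 (3.44, SE 0.28, adjusted p = 6.17e-06), and Trem2, a lipid receptor, from 1.27, 1.87, 0.923 and 2.77 to 28.0, 33.7 and 27.8 (3.85, SE 0.35, adjusted p = 1.15e-05). The 3-day values of all these were within or near the control range. Lgals3 (3.08), Cd14 (3.41), Cx3cr1 (2.56), Ccr2 (1.91), Csf1r, the receptor for Csf1 (1.87), and the C1q chains (1.08 to 1.23) rose too.

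Markers of resident Kupffer cells were not left behind, with 7 of 10 higher (70%, against 14.0% of all genes) and none lower, Cd163 being in both lists. Marco, a scavenger receptor, was at 2.38, 2.96, 6.11 and 8.89 eRPKM at 3 days and at 71.8, 89.1 and 54.0 at 7 days (3.82, SE 0.52, adjusted p = 0.000158). Timd4 went from 10 to 16.7 up to 52.3 to 67.3 (2.21, SE 0.32, adjusted p = 0.000230). Clec4f, a lectin of Kupffer cells, was at 70.5, 73.3, 72.1 and 130 at 3 days and 148, 130 and 153 at 7 days, and was not called (0.78, adjusted p = 0.0309).

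Other leukocytes gave a mixed picture. Of 9 neutrophil markers tested 5 were higher (55.6%, against 14.0% of all genes), among them Mmp9 and S100a9 (1.68, lost in 11 alternatives). Their sum was 20 to 80.3 eRPKM at 3 days and 113 to 170 at 7 days, while Stfa1 and Stfa2 had no read in the 7 livers. T, B, NK and dendritic cell markers summed to 106 to 143 and 111 to 126 eRPKM. Of 27 tested 1 was higher (3.7%, against 14.0%), Cd4 (1.24), and 1 lower (3.7%, against 5.31%), H2-Aa (-0.99). These 2 calls were lost in 14 and 4 alternatives. Cd3e, which defines T cells, was between 0.186 and 1.47 eRPKM in all 7 livers.

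Immediate early genes, which respond within minutes to stimuli and to tissue handling, moved with these lists, and their part in the other changes was not tested. Of 17 tested 13 were higher (76.5%) and none lower. Fos went from 1.91, 1.79, 3.15 and 0.881 eRPKM to 36.5, 20.7 and 26.1 (3.58, SE 0.36, adjusted p = 2.45e-05), and Egr1 from 2.52 to 4.81 up to 16.6 to 30 (2.54). Controls held 0.843 to 2.70 eRPKM of Fos.

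Macrophage markers called higher numbered 18 in female livers and 15 without 7-day liver 3. Neutrophil markers called were 2 in female livers, 6 without 3-day liver 3, and 1 or 2 without any other liver.

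**Figure D5:**
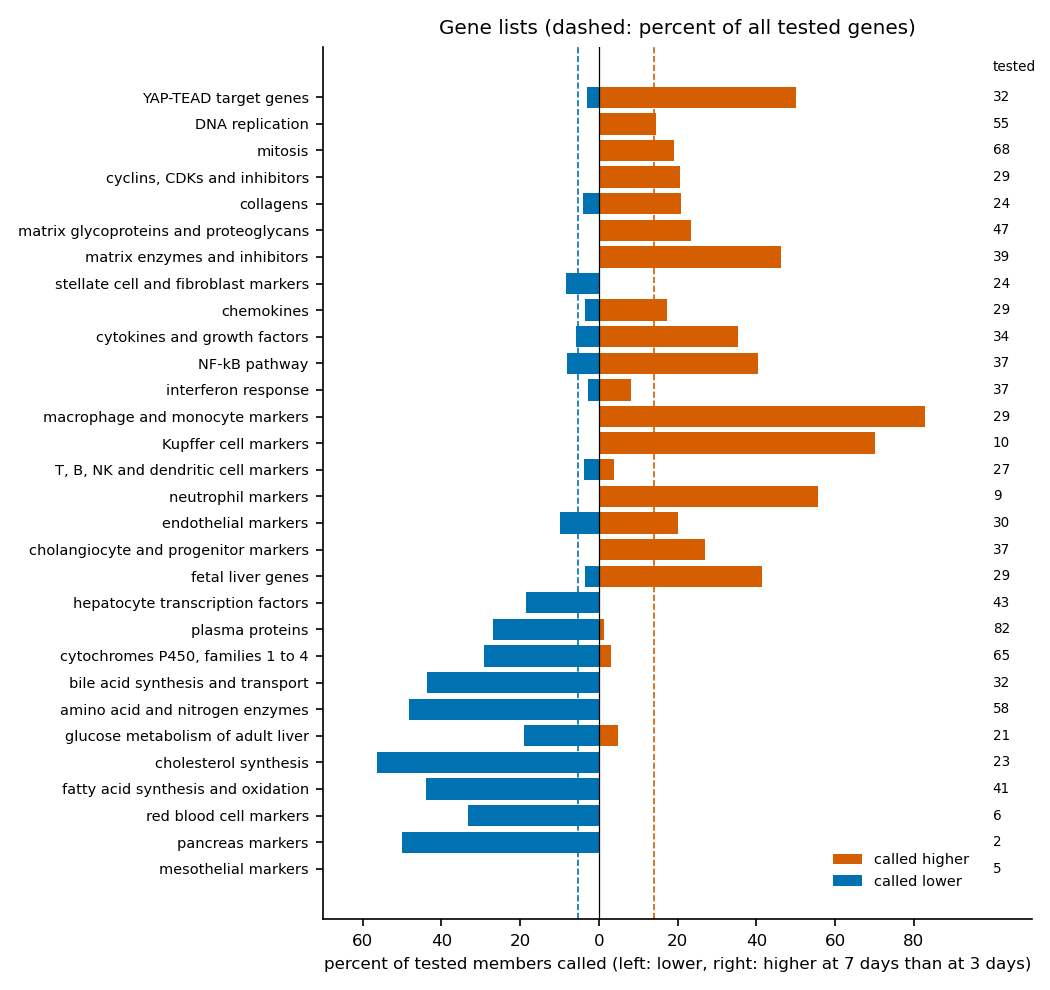
Percent of the tested members of each list called higher (orange, to the right) or lower (blue, to the left) at 7 days than at 3 days, with the number tested at the right; dashed lines mark the 14.0% and 5.31% of all tested genes. Macrophage and monocyte markers reach 82.8% higher and cholesterol synthesis 56.5% lower, while DNA replication sits at the dashed line with 14.5%.

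Genes of the biliary lineage and of hepatic progenitors rose in part. Of 37 tested, 10 were higher (27.0%) and none lower, with a median of 0.64. Bicc1 (chromosome 10, 70385580 to 70622448, minus strand), an RNA-binding protein of kidney and bile duct epithelium, was at 0.784, 1.15, 1.55 and 1.08 eRPKM at 3 days, like the controls at 1.26 to 1.52, and at 33.6, 35.2 and 32.4 at 7 days (4.4, SE 0.22, adjusted p = 2.34e-07). A transcript on the opposite strand, 4930533K18Rik, overlaps its exons. Jag1, a Notch ligand required for bile duct formation, went from 3.37, 3.23, 3.14 and 2.54 to 23.9, 25.8 and 13.5 (2.55, SE 0.26, adjusted p = 2.61e-05), and Sox4 from 0.986 to 2.77 up to 11.2, 11 and 16.5 (2.64, SE 0.35, adjusted p = 0.000139). The receptors Notch1 (1.06) and Notch2 (0.83), Pkhd1 (2.15) and Cd44 (2.21) were higher too.

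The keratins and the markers by which bile ducts are usually stained were less clear. Krt19 was at 0.796, 1.36, 1.15 and 1.73 eRPKM at 3 days and 2.37, 4.28 and 7.19 at 7 days, which separated the groups but was not called (1.45, SE 0.46, adjusted p = 0.0271). Krt7 (1.07, adjusted p = 0.0185), Sox9 (0.94, adjusted p = 0.0357), Epcam (0.58, adjusted p = 0.308) and Spp1 (0.15, adjusted p = 0.696) were not called either. The list had 5 higher members in female livers, and 6 and 5 without 7-day livers 2 and 3.

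Of 29 fetal liver genes tested, 12 were higher (41.4%) and 1 lower, with a median of 0.69. Gpc3 (chromosome X, 49625603 to 49967127, minus strand), a cell surface glypican of fetal liver and of hepatocellular carcinoma, was at 0.671, 1.48, 1.94 and 1.17 eRPKM at 3 days and at 88.8, 82.0 and 78.5 at 7 days, the largest difference of the list (5.57, SE 0.48, adjusted p = 9.31e-06). Scd2, the desaturase of the fetal liver, went from 4.32 to 5.32 up to 34.0 to 52.4 (3.04, SE 0.23, adjusted p = 4.01e-06), and Bex1 from 0 to 0.309 up to 3.55 to 5.84 (3.06). Hexokinases and pyruvate kinase M, which serve glycolysis outside the adult hepatocyte, were higher as well, with differences of 2.58 for Hk2, 1.58 for Hk1 and 1.91 for Pkm. Igf2bp1 (1.67), Peg3 (1.89) and Grb10 (1.5) belong to the growth and imprinted genes of the list.

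Better known fetal transcripts were not called. Afp, alpha-fetoprotein, was at 1.75 to 5.69 eRPKM at 3 days and 4.95 to 6.33 at 7 days (0.52, adjusted p = 0.357), Igf2 was under 1 eRPKM in all 7 livers (-0.10, adjusted p = 0.844), and so was H19 (0.67, adjusted p = 0.124). Fabp5 fell by 1.63, a call lost in 6 alternatives. In female livers 8 members were higher.

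Hepatocyte functions fell. Of 43 transcription factors of hepatocytes tested, none was higher, against 14.0% of all tested genes. Lower were 8 (18.6%, against 5.31%), and the median was -0.16. Hnf4a, the factor that maintains hepatocyte identity, was at 149, 169, 157 and 158 eRPKM at 3 days and 129, 116 and 129 at 7 days, a small step without overlap that was not called (-0.35, SE 0.14, adjusted p = 0.0682), and its reads per kilobase before scaling were higher at 7 days, 683 to 688 against 396 to 612, with control liver 2 at 135 eRPKM. Foxa2 (-0.04, adjusted p = 0.919) was not called. Nr0b2, the SHP repressor of bile acid synthesis, went from 30, 33.2, 25.2 and 46.2 eRPKM to 7.77, 4.67 and 12.3 (-2.03, SE 0.34, adjusted p = 0.000776), and Tbx3 (-1.83), the xenobiotic receptor Nr1i3 (-1.49), Onecut2 (-1.2), Cebpa (-0.97), Ppara (-0.94) and the bile acid receptor Nr1h4 (-0.58) also fell. Only 2 of the 8 had lower reads per kilobase before scaling, Cebpa lost its call in 10 of 25 alternatives (highest adjusted p = 0.0343), and the list kept 2 lower members in female livers and 5 without 7-day liver 1 or 3.

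Bile acid synthesis and transport lost 14 of 32 members (43.8%, against 5.31% of all genes) and gained none. Cyp7a1 (chromosome 4, 6192759 to 6202780, minus strand), the rate-limiting enzyme of the classical pathway, was at 128, 142, 109 and 174 eRPKM at 3 days and 15.1, 10.9 and 15 at 7 days (-3.28, SE 0.30, adjusted p = 1.14e-05), and control liver 2 held 145. Its reads per kilobase before scaling went from 341 to 639 down to 64.8 to 81.1. The enzyme fell together with Nr0b2, its repressor, and with Nr1h4. Cyp7b1 of the alternative pathway was at 197 and 200 eRPKM in the male 3-day livers and 36.9 and 47.6 in the female ones, and at 5.94, 3.61 and 6.58 at 7 days, so the difference was -4 over all livers and -2.89 among females (adjusted p = 0.00253 and 0.000536), with the call lost without 7-day liver 2 and in 2 other alternatives (highest adjusted p = 0.0223). The uptake transporters Slco1b2 (-2.46), Slco1a1 (-3.22) and Slc10a1 (-1.83) and the export pump Abcb11 (-1.45) were lower. Of the 14, 10 also had lower reads per kilobase before scaling, and 8 members were called without 7-day liver 2.

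Cytochromes P450 of families 1 to 4 included 19 lower (29.2%, against 5.31% of all genes) and 2 higher (3.08%, against 14.0%) among 65 tested. Cyp1a2 was at 122, 179, 185 and 116 eRPKM at 3 days and 40.5, 8.10 and 14.9 at 7 days (-3.07, SE 0.40, adjusted p = 0.000135), with control liver 2 at 166 and 326 to 680 reads per kilobase before scaling against 48.1 to 217. Cyp2e1, another enzyme of pericentral hepatocytes, was at 282 to 363 and 91.0 to 108 (-1.64, SE 0.31, adjusted p = 0.00175), a call lost without 7-day liver 2 (adjusted p = 0.0114). Its reads per kilobase before scaling went from 967 to 1140 down to 540 to 575, and control liver 2 held 239 eRPKM. Cyp2a5 (-2.79), Cyp2c29 (-2.82) and Cyp2d40 (-3.27) belong to families of near-identical copies. Cyp4f18 (1.88) and Cyp4f16 (1.65) were the 2 that rose, from low levels, in calls lost in 14 and 6 alternatives. Of the 19 lower members, 12 also had lower reads per kilobase before scaling, and 25 members were lower in female livers.

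Amino acid and nitrogen enzymes had 28 of 58 members lower (48.3%) and none higher, with a median of -0.68. Hao1, a peroxisomal oxidase of glycolate, was at 202, 144, 92.4 and 106 eRPKM at 3 days and 15.8, 15.9 and 16.8 at 7 days (-2.97, SE 0.28, adjusted p = 1.43e-05), with 340 to 537 and 84.6 to 94.6 reads per kilobase before scaling and 110 eRPKM in control liver 2. Hal and Amdhd1, of histidine breakdown, fell by 1.87 and 1.69, Oat by 1.97, and of the urea cycle Otc fell by 1.56 and Ass1 by 0.85, while Cps1, its first and most abundant enzyme, was not called (-0.45, adjusted p = 0.192) and had more reads per kilobase before scaling at 7 days, 972 to 1040 against 718 to 913. On the control scale the list stood at -0.07 to -0.13 at 3 days, at -0.76, -0.99 and -0.81 at 7 days and at -0.21 in control liver 2. Fewer reads per kilobase before scaling were seen for 13 of the 28, and 16 members were called without 7-day liver 2.

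Of 82 plasma protein genes tested, 22 were lower (26.8%), 59 were not called and 1, Igfbp1, was higher, in a call lost in 11 alternatives. The median was -0.68, and -0.19 after quantile normalization. For 72 the 7-day livers lay below every 3-day liver, against 13.8% of all genes. Falls were also common among abundant genes at large, with 179 of 686 lower at 300 to 600 reads per kilobase. The median was -0.46 in that range and -0.59 at 600 or more. Whether the list fell beyond genes of like abundance was not tested. F11, coagulation factor XI, was at 27.3, 36.6, 24.3 and 29.8 eRPKM at 3 days and 3.87, 2.11 and 5.86 at 7 days (-2.83, SE 0.28, adjusted p = 1.93e-05), Serpina6, corticosteroid-binding globulin, went from 92.1 to 204 down to 57.5, 7.48 and 13 (-2.82), and C8b (-2.39), Pon1 (-1.80), F9 (-1.52) and F7 (-1.48) fell too. The list level was -0.08 to -0.31 at 3 days, -0.95 to -1.12 at 7 days and -0.44 in control liver 2, and 9 of the 22 had lower reads per kilobase before scaling.

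Cholesterol synthesis had the largest share of lower members, 13 of 23 (56.5%), and none higher, with a median of -1.21. Tm7sf2, a sterol reductase, was at 57.9, 55.1, 48.9 and 75.2 eRPKM at 3 days and 9.24, 9.36 and 12.5 at 7 days (-2.46, SE 0.17, adjusted p = 2.30e-06). Idi1 (-2.38), Cyp51 (-2.55), Msmo1 (-2.41) and Fdps (-2.06) fell too. The summed level was 1640 to 2080 eRPKM at 3 days and 668 to 907 at 7 days, control liver 2 stood 0.29 above the control mean where the 7-day livers stood 0.94 to 1.47 below it, and 15 members were lower in female livers. CCAAT or ATTGG was in 14 of the 18 windows of this list (77.8%) against 33.8% of all windows.

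Fatty acid genes followed with 18 of 41 lower (43.9%) and none higher. Acacb, the carboxylase that controls entry of fatty acids into mitochondria, was at 7.33, 9.73, 29.3 and 20.4 eRPKM at 3 days and 2.29, 2.11 and 1.72 at 7 days (-2.56, SE 0.45, adjusted p = 0.000958), and Me1, which supplies NADPH, at 51.9 to 82.2 and 10.8 to 16.5 (-2.21, SE 0.21, adjusted p = 1.71e-05). Genes of synthesis (Scd1 -1.27, Fads1 -0.99, Elovl5 -1.21), of oxidation (Ehhadh -1.28, Acsl1 -1.06, Hadhb -0.79) and of ketone body production (Bdh1 -2.10) were lower together. The list kept 9 lower members in female livers, and 11 and 8 without 7-day livers 2 and 3. In glucose metabolism 4 of 21 were lower (19%, against 5.31% of all genes) and 1 higher (4.76%, against 14.0%). Ppp1r3c, which targets phosphatase to glycogen (-2.72), G6pc (-1.57), Gys2 (-1.33) and Pygl (-0.67) fell, the calls of G6pc and Pygl being lost in 9 and 6 alternatives. Pck1 was not called (-0.69, adjusted p = 0.0533), and 2 members were lower without any 1 of the 7-day livers.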

How the data were processed

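Total RNA of 11 whole mouse livers was sequenced in read pairs. The authors masked poor bases and aligned the pairs without regard to strand, using TopHat 2.0.8 and the mm9 genome. The authors' processing notes also name featureCounts 1.4.5-p1, SAMtools and DESeq2. The gene annotation and the treatment of duplicate reads are not given in the sources used here. The deposited values are RPKM that the authors call eRPKM, with 20893 genes in 11 columns, 1 per liver. A further 3 deposited columns hold the authors' own DESeq2 comparison of 7 days with control (the mean signal of size-factor-scaled reads, the log2 change, and its p-value after adjustment) and were not used. Groups were taken from the labels, which do not say whether livers came from separate litters or batches, so p-values measure the spread between these mice.

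All 177553 values above 0 (100%) were whole reads within 0.001 of a read once the step of 1 read per gene and library was found, and these reads gave depth, reads per kilobase and a count-based alternative. Reads of genes whose counts share a common factor in every library are lower bounds. A gene entered the test where 3 or more libraries reached 0.5 eRPKM. limma 3.58.1 (R 4.3.3, with trend) was fitted to log2(eRPKM + 0.5), with 11 livers in 3 groups, 8 residual degrees of freedom and Benjamini-Hochberg adjustment over all tested genes. The exact permutation test of a single gene over 35 splits cannot give a p below 0.0286, and the tests quoted are those of limma. Size factors were median ratios.

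A gene was called at an adjusted p under 0.01 with an absolute log2 difference above 0.5. Named genes were, among those called with groups that did not overlap and a mean of at least 1 eRPKM, the 15 that rose most and the 15 that fell most, up to 4 called members per list with up to 2 of the minor direction, and a fixed set of well known genes. Further list members are named from their called counts, chosen after their values were seen. The comparison, the 34 lists and the named set were chosen with earlier results of these data known. No set test was run, and lists are described by counts and medians. Emr1 was named in the lists and is not analysed here. A few other list members are not reported here.

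The fit was first tested on simulated data. Promoter windows are from RefSeq, were placed on mm9 by exact match, and covered 11015 of the 14244 tested genes; no window of Ctgf was used here. Positions and exon overlaps are from a GENCODE annotation of mm9, which held 19015 of the symbols once. Alternatives were pseudocounts of 1 and 0.1, other filters, size factors, quantile normalization, the 7 induced livers alone, limma without trend, robust or on reads (voom), a replicate block, Xist, depth or the label suffix MF as a covariate, female livers only, leaving out each liver and a looser threshold. Female livers with size factors and the omission of genes with 300 or more reads per kilobase were added after the values were seen. Python 3.11.15, numpy 2.4.6, pandas 2.3.3 and matplotlib 3.10.9 were used.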

Additional observations from a re-analysis of the deposited data

Results flagged for a closer look

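In 15 of the 230 groups of 4 livers at 3 days that were examined (6.52%), the gap between the highest or lowest liver and its nearest neighbour exceeded Dixon's critical value as a share of the group's range. For normally distributed values chance alone gives such a gap in about 1 group in 20. That rate need not hold for genes with hardly any reads, so the 6.52% was not read against it. The extreme liver was liver 1 in 6 of them, liver 2 in 2, liver 3 in 3 and liver 4 in 4. The 3 livers at 7 days were too few to examine.

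In liver 1, Alb was at 454 eRPKM against 346 to 356 in the other livers (gap 0.890 of the range), Col1a1 at 21.2 against 13.8 to 14.6 (0.858), Sox9 at 3.25 against 2.42 to 2.48 (0.913) and Timp1 at 0.409 against 0.296 to 0.3 (0.959). The reads of Sox9 (37 to 39) and Timp1 (1 in each) were nearly equal over the 4 livers, and liver 1 was the shallowest library. In the same liver Emilin2 was lowest at 0.617 against 2.49 to 2.81 (0.906) and Pck1 at 218 against 253 to 259 (0.865). Liver 2 alone held Bex1, by 1 read at 0.309 eRPKM (1.0, the whole range), and Mir3109, by 1 read at 3.04 (1.0, the whole range). Liver 3 stood out for Col4a3, at 5.03 against 0.584 to 0.661 (0.958), for Cxcl12, at 85.9 against 68.1 to 70.2 (0.873), and for the neutrophil marker list, whose level was 0.45 above the controls on the log2 scale against -0.37 to -0.32 in the other livers (0.939). In liver 4 the macrophage genes Clec4f, at 130 against 70.5 to 73.3 (0.937), and Ccl6, at 40.6 against 12.2 to 14.2 (0.876), were highest, while Cryab was lowest at 0.734 against 1.83 to 2.03 (0.890) and Tbx3 at 3.99 against 7.38 to 8.10 (0.865).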

How the results depend on the processing

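The 1997 higher and 756 lower genes became 1526 and 1185 with size factors, 1436 and 1430 after quantile normalization, 1326 and 558 with Xist as a covariate, 1023 and 401 in female livers only, 1091 and 588 once depth was a covariate, 769 and 508 in female livers with size factors, and 3621 and 1464 without a fold threshold at an adjusted p under 0.05. Leaving out each liver in turn gave 1048 to 2619 higher and 364 to 1064 lower genes, with both counts over 1.5 times smaller without any one of the 7-day livers and the lower count at 486 without 3-day liver 4. In the other alternatives the counts stayed within 1.5 times those reported. Of the 157 named genes that were called, 97 kept their call in every alternative that tested them, 24 or 25 for each gene, and none changed sign; depth as a covariate ended 37 calls, female livers only 41, quantile normalization 24, size factors 17, and leaving out a 7-day liver 39 to 42, against 2 to 29 for a 3-day liver. Of the 39 named genes not called, 14 were called in some alternative and 15 changed sign in some.

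The labels give the livers of both times the numbers 1 to 3. Same-numbered livers did not deviate together (correlations of -0.098, -0.113 and 0.072), and of the 3-day livers only liver 3 correlated best with its own number, so the numbers were not taken as a pairing; with the number as a replicate block 1429 genes were higher and 552 lower.

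Depth and sex differ with the time of induction and cannot be fully told apart from it, since the 7-day libraries are the deeper ones and all from females. The near-constant top of the reads per kilobase limits what can be said of abundant hepatocyte genes; without the genes at 300 or more reads per kilobase, 551 genes were lower. With 2660233 to 3681416 reads at 3 days, a gene at a few reads is known only within wide limits.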

Other observations

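Liver genes that differ between the sexes are a further group that changed. By list, 9 of 21 male-biased genes were lower at 7 days (42.9%, against 5.31% of all genes) and none higher. On the scale of the controls their mean log2 level was 1.25 and 0.88 in the male 3-day livers, -1.74 and -0.65 in the female ones and -2.52, -2.73 and -2.69 in the 7-day livers, which were all female, while the female controls stood at -1.07 and -1.24. The 7-day livers were thus below every female liver of the other groups, and among female livers 8 of the 21 were called lower. Mup1, a urinary pheromone carrier with close copies, was at 45.8 and 48.9 eRPKM in the 3-day males, 11.9 and 9.44 in the 3-day females and 0.333, 0.150 and 0.671 at 7 days. Elovl3, a fatty acid elongase, was at 114 and 48.0, at 2.81 and 8.84, and at 0, 0.347 and 0.

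Female-biased genes fell too where the comparison was made within females. None of the 17 was called over all livers, whereas among female livers 9 were lower and none higher, with a median log2 difference of -3.17. Their level was 2.78 and 2.49 in the female 3-day livers and 2.43 and 2.45 in the female controls, against 0.05, -0.73 and -0.23 at 7 days. The 3-day males stood at -1.94 and -3.29, so the 7-day females lay between the 3-day males and females, and lower levels were seen in both the male-biased and the female-biased list.

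Of 30 endothelial markers, 6 were higher (20%, against 14.0% of all tested genes) and 3 lower (10%, against 5.31%). Their median was 0.34, close to the 0.26 of all genes. Their summed level was 434 to 733 eRPKM at 3 days and 610 to 628 at 7 days. Cd34, which is low in normal sinusoids and found in larger vessels and in capillarized ones, went from 2.36, 1.22, 1.91 and 3.72 eRPKM to 8.64, 10.2 and 10.1 (1.93, SE 0.33; limma adjusted p = 0.000830; its exons overlap Gm16897 on the opposite strand, and counting ignored strand), and Cdh5 rose by 1.24 and Sox18 by 1.24. Markers of the sinusoidal type fell, Clec4g from 57.6 to 127 eRPKM down to 30.5 to 43.0 (-1.11, adjusted p = 0.00805) and Dnase1l3 from 24.9 to 36.3 down to 14.1 to 17.6 (-0.92, adjusted p = 0.00738), but Stab1 (1.07) and Lyve1 (1.89), of the same cells, rose. The 3 lower markers were not called in 5 of the 7 fits that left out a liver, all but those without 3-day livers 2 or 3, and 3, 3 and 1 markers of the list were called higher without 7-day liver 1, 2 or 3. Among female livers 2 markers were higher and 1 lower, and with size factors 3 and 3.

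Red blood cell markers were lower for 2 of 6 tested (33.3%, against 5.31% of all genes). Car1 was at 8.24 to 20.1 eRPKM at 3 days and 0.146 to 0.725 at 7 days (-3.60, adjusted p = 2.64e-05), and Hbb-bs at 71.4 to 118 and 43.4 to 51.3 (-0.93, adjusted p = 0.00786, lost in 15 of 25 alternatives). Of the 2 pancreas markers tested Cela1 was lower (-1.64), and none of 5 mesothelial markers or 5 sex-chromosome genes was called.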
